A study of Mus musculus with 48 samples.

Results

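The Itgam and Itgax locus of mouse chromosome 7 was described by the open chromatin peaks that fall between positions 135180000 and 135310000 of the mm9 genome. Peaks of all 48 deposited ATAC-seq lists that touched this interval were merged across lists where they overlapped by at least 1 bp. This gave 34 peak regions, out of 258607 regions merged the same way over the whole genome. They are numbered 1 to 34 from the left end of the interval. ATAC-seq uses a transposase that inserts into open DNA, so that a peak marks a stretch of accessible chromatin. The libraries came from 24 mouse bone marrow ER-Hoxb8 clones, each measured once as progenitors, which the labels call GMP cells, and once as monocytic cells. Both stages carry the ER-Hoxb8 construct, a Hoxb8 protein tied to the oestrogen receptor that holds myeloid progenitors in an immature state while oestrogen is supplied. The sample titles mark progenitors as Plus and monocytic cells as Minus, without naming what was present or absent. The labels give a single growth protocol for both stages, RPMI medium with serum, antibiotics and SCF, and no animal age. The condition that separates Plus from Minus is therefore not described by that protocol. Every line is 1 clone, the clones are numbered 1 to 13 and 15 to 25, and with 1 library per clone and stage the p-values below take in clonal and technical spread together.

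Itgam encodes CD11b, the alpha chain of the integrin Mac-1, and Itgax encodes CD11c, the alpha chain of a sister integrin. Both pair with the shared beta chain CD18 and serve adhesion and the uptake of complement-coated particles. CD11b is a standard surface marker of monocytes, macrophages and neutrophils, and CD11c marks dendritic cells and some macrophages. In the RefSeq gene table Itgam, Itgax and Itgad, the alpha chain of another leukocyte integrin, follow one another in that order, with pseudogenes between them.

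The promoters of both genes are shown because the interval was chosen for these genes. They are RefSeq sequences of build GRCm38.p6, on the plus strand of chromosome 7, Itgam at chr7:128062390-128062689 and Itgax at chr7:128129300-128129599, each from 250 bases before the gene start to 50 after it. Capitals mark matches, on either strand, to the motifs searched.
Itgam: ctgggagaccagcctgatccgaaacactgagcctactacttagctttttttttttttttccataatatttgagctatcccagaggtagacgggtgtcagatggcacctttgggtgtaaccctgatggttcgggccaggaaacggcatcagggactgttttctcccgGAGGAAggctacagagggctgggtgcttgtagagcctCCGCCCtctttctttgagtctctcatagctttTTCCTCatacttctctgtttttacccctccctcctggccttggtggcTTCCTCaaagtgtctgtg
Itgax: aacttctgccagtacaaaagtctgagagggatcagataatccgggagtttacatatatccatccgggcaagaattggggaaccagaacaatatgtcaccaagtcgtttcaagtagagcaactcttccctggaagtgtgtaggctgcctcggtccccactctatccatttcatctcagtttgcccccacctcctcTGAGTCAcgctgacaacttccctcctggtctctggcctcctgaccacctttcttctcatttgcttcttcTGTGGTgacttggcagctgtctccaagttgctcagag
The Itgam window held 3 matches to GAGGAA, the core recognised by the myeloid factor PU.1, and 1 match to GGGCGG, the Sp1 box, which read CCGCCC on the strand printed. The Itgax window held 1 match to TGANTCA, the AP-1 site, and 1 match to TGTGGT, the Runx core. Of 32851 promoter windows of the same length, 28.28% held GAGGAA, 35.66% held GGGCGG, 7.808% held TGANTCA and 16.76% held TGTGGT. Neither window held TTGCNNAA (C/EBP; 10.8% of windows), the IRF repeat (3.443%) or TATAAA (13.62%), and no matches of different motifs overlapped. The peaks lie on mm9 and these windows on a later build, so the windows were not placed among the peak regions, and which region lies in an exon, an intron or a promoter was not analysed here.

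The locus was covered by many peaks in progenitor lists and by few in monocyte lists. Of the 34 regions, 31 were peaks in at least 1 progenitor list and 12 in at least 1 monocyte list. Both stages held 9 of them, 22 appeared in progenitor lists alone and 3 in monocyte lists alone. Progenitor lists held 16.5 ± 5.88 regions (SD, n = 24; lowest 2, median 18, highest 24) and monocyte lists 3 ± 2.45 (SD, n = 24; lowest 0, median 3, highest 7). The ranges of the stages overlap only through the progenitor lists of clones 11, 21 and 25, which held 3, 3 and 2 regions.

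**Figure D1:**
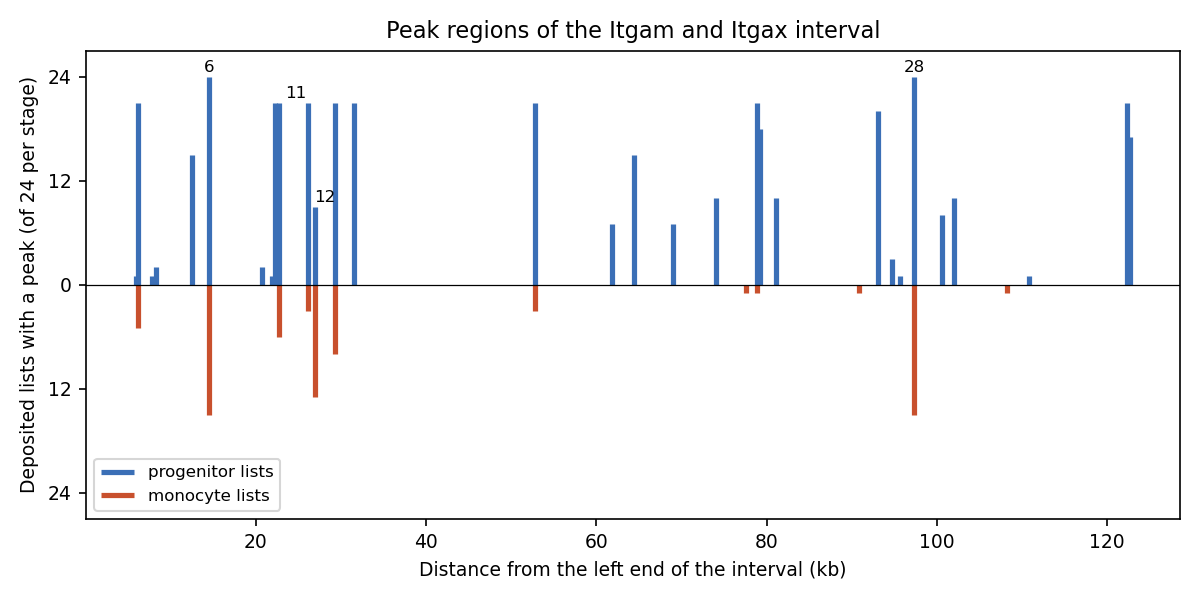
Number of deposited lists of each stage (vertical axis, progenitor lists upward and monocyte lists downward, of 24 each) that hold each of the 34 regions, against distance from the left end of the interval in kb. Regions 6 and 28 reach 24 progenitor lists and 15 monocyte lists, and region 12 is held by 13 monocyte lists and 9 progenitor lists.

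These counts moved with the length of the lists. Progenitor lists ran from 11114 to 136322 peaks and monocyte lists from 231 to 38786. Per 10000 peaks of the list, the locus gave 2.07 ± 0.486 regions in progenitor lists and 1.37 ± 0.958 in monocyte lists (SD, 24 lists each). The 6 monocyte lists without a peak in the interval were those of clones 16, 17, 19, 21, 22 and 23, all of the later clone numbers. Monocyte lists of clones 1 to 13 held 4.62 ± 1.94 regions (SD, n = 13) and those of clones 15 to 25 held 1.09 ± 1.38 (SD, n = 11). These lists also differed in length, with 25517 ± 5419 and 11145 ± 10464 peaks. The contribution of list length to the stage difference in region number was not tested, and lists were therefore cut to 1 length for the comparisons of stages.

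**Figure D2:**
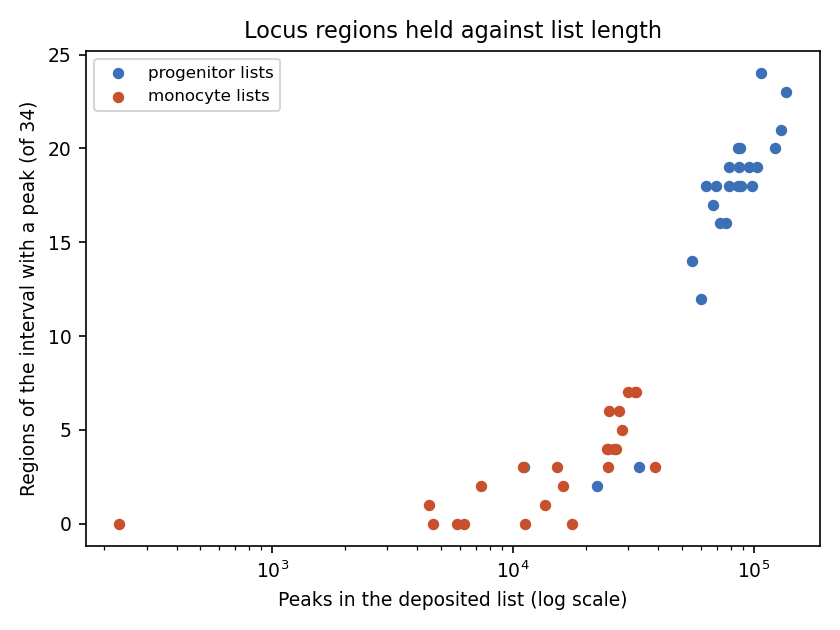
Number of regions of the interval with a peak (vertical axis) against the number of peaks in the list (horizontal log axis), 1 point per deposited list. Monocyte lists, with at most 38786 peaks, hold at most 7 regions, and the 3 progenitor lists with fewest peaks hold 2 or 3.

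The first of the 2 score columns ranks the peaks of a list, and its values fall on evenly spaced steps, 1 step being read as 1 sequenced tag. The peak at rank 10000 carried 13 to 605 tags in progenitor lists (median 239) and 10 to 74 tags in monocyte lists (median 43.5, n = 18). Ranks below are counted from the strongest peak of a list, and tied peaks share their mean rank.

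**Figure D3:**
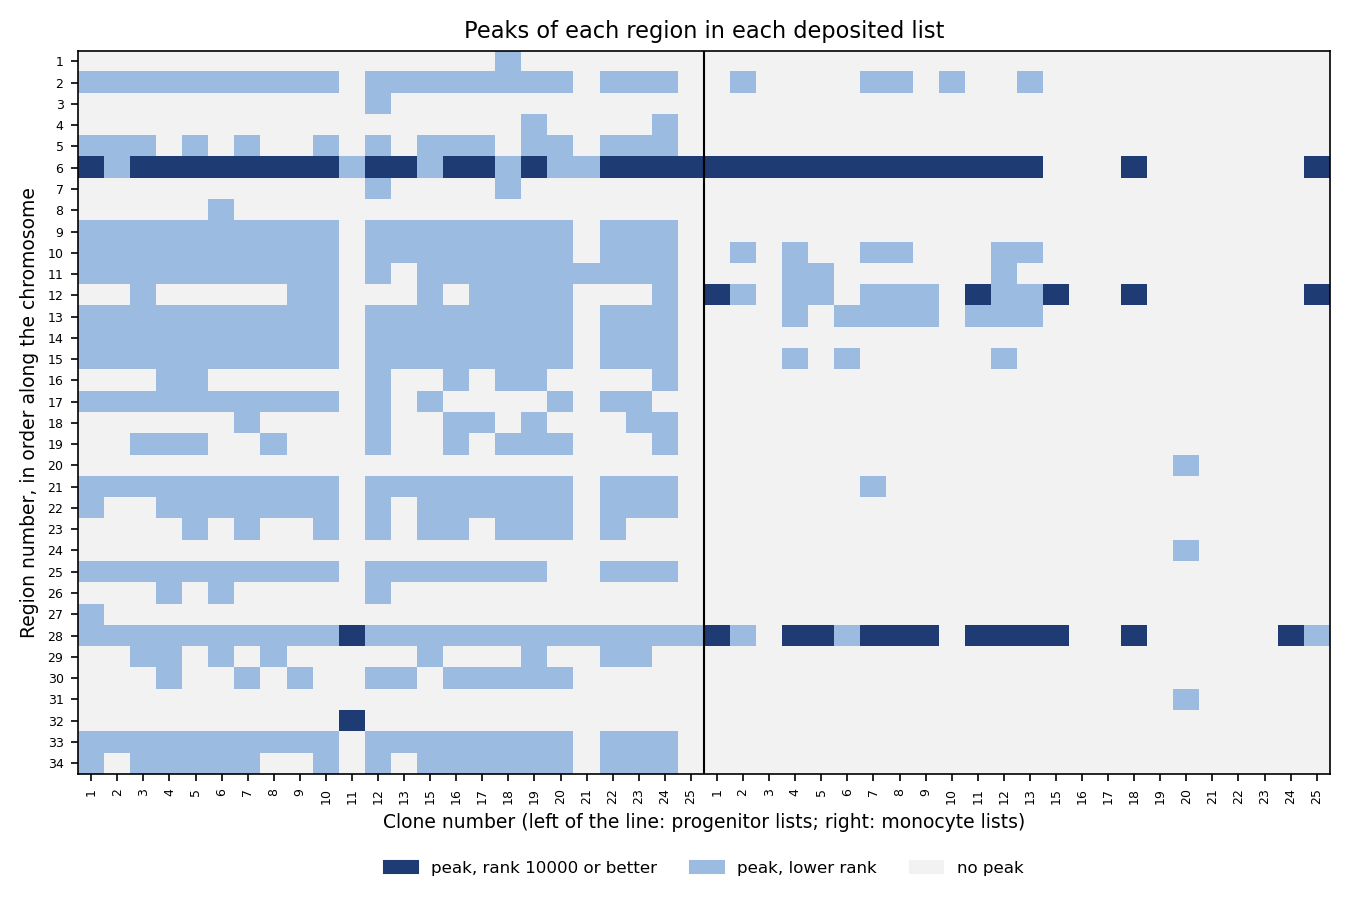
Peaks of the 34 regions (vertical axis, in order along the chromosome) in the 48 deposited lists (horizontal axis, progenitor lists left of the line and monocyte lists right of it, by clone number). Dark cells are peaks of rank 10000 or better, light cells lower peaks and grey cells no peak. Region 6 is dark across most lists of both stages, region 28 is dark mainly in monocyte lists, and most other regions are light and confined to progenitor columns.

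Only regions 6, 12, 28 and 32 ever ranked among the 10000 strongest peaks of a list. Region 32 did so in 1 progenitor list, that of clone 11, which has the fewest peaks of its stage. The 10000 strongest peaks held 0.833 ± 0.482 locus regions in progenitors (SD, n = 24) and 1.61 ± 0.979 in the 18 monocyte lists of that length (SD), the opposite order to the lists as deposited.

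Region 6, at chr7:135194357-135194646, had the best median rank of the locus in both stages among regions that several lists hold. All 24 progenitor lists and 15 monocyte lists held it, the latter being all 13 of clones 1 to 13 and those of clones 18 and 25. Its rank in progenitors was 3310 at best, in clone 12, with a median of 7005.5 and a worst of 11980, in clone 20. In monocytes it was 3543 at best, in clone 25, with a median of 7467 and a worst of 9884, in clone 18. The rank ranges of the stages overlap almost fully. In tags the peak was larger in progenitors, with 14 to 961 and a median of 339.5, against 10 to 184 and a median of 90 in monocytes, as were the tags at rank 10000.

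Region 6 was among the 10000 strongest peaks in 18 of 24 progenitor lists and 15 of 18 monocyte lists, a difference of 8.33 percentage points that did not pass (two-sided Fisher's exact test, p = 0.708, Benjamini-Hochberg adjusted p = 0.950). Across all 13596 regions tested, 11.7% were called higher in monocytes and 12.2% higher in progenitors. In clones 1 to 13, where region 6 is a peak in all 26 lists, its rank was also taken as a percentile among the 8188 regions that all those lists share, with 100 as the strongest. The percentile was 33.2 ± 17.7 in progenitors (range 1.85 to 64.0) and 25.5 ± 8.10 in monocytes (range 15.6 to 40.1; SD, n = 13 each). The monocyte range lies inside the progenitor range, and the difference of -7.68 did not pass (two-sided permutation test, p = 0.167, Benjamini-Hochberg adjusted p = 0.254, against a background of 23.8% called higher in monocytes and 21.6% in progenitors). Monocytes had the higher percentile in 5 of 13 clones. Among progenitor clones the region varied more than most, since 92.6% of the shared regions had a smaller SD, whose median was 10.1. Among monocyte clones 55.9% had a smaller SD.

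Region 28, at chr7:135277207-135277429, had better rank numbers in monocyte lists, but not better positions relative to list length. It too was a peak in all 24 progenitor lists, and in the monocyte lists of 15 clones (1, 2, 4 to 9, 11 to 13, 15, 18, 24 and 25). Its progenitor rank ran from 8772, in clone 11, through a median of 14050.2 to 22007, in clone 12. Its monocyte rank ran from 4164, in clone 24, through a median of 8479.5 to 10788.5, in clone 6. The progenitor list of clone 11 lay inside the monocyte range, and the other progenitor lists began at rank 11649, past the lowest monocyte rank. In all 15 clones with the peak in both deposited lists, the monocyte rank number was the better. As a share of the list, counted from its top, the order was the reverse in all but 1 of them, clone 11. The peak lay at 9.14% to 78.9% of progenitor lists (median 18.2%) and at 22.1% to 93.3% of the shorter monocyte lists (median 34.2%). Region 6 behaved likewise on that scale, with the monocyte peak nearer the top in 2 of 15 clones.

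**Figure D4:**
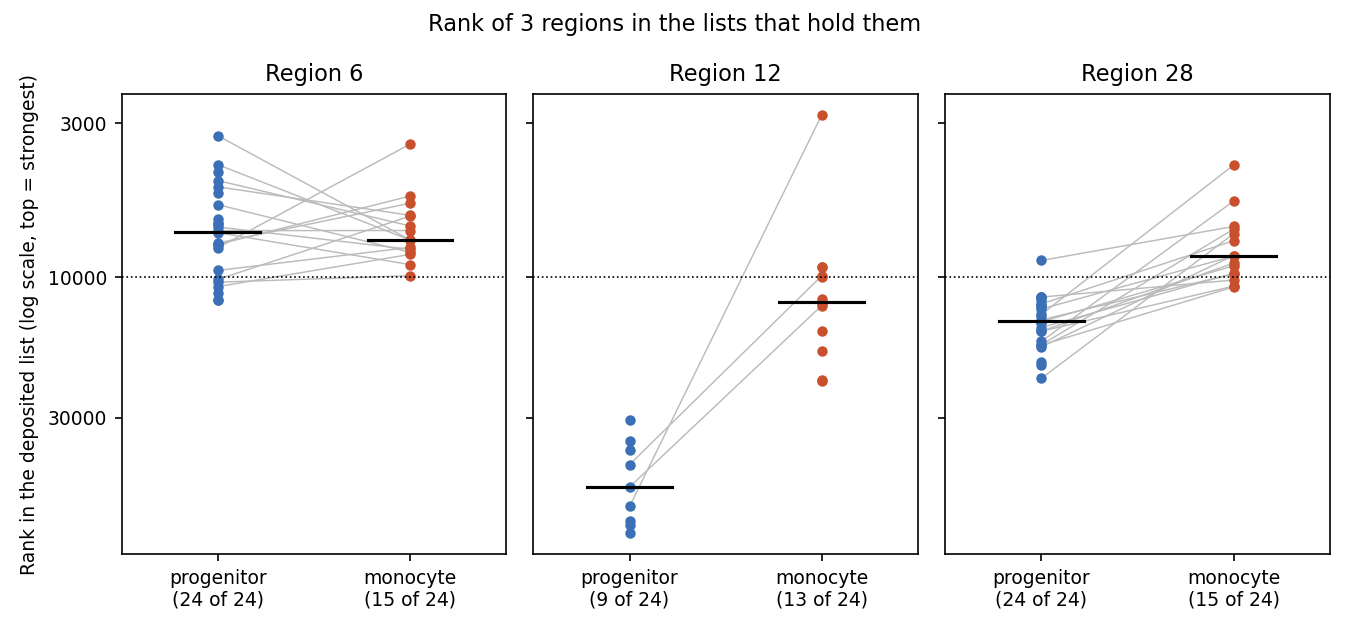
Rank of regions 6, 12 and 28 in the deposited lists that hold them (vertical log axis, strongest at the top), by stage. Points are lists, grey lines join the lists of 1 clone, black bars are medians and the dotted line is rank 10000. Region 28 lies above that line in most monocyte lists, region 12 ranks 30388.5 or lower in every progenitor list that holds it, and region 6 overlaps between the stages.

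At 1 list length, region 28 was among the 10000 strongest peaks in 10 of 18 monocyte lists and 1 of 24 progenitor lists, a difference of 51.4 percentage points that passed (two-sided Fisher's exact test, p = 0.000253, Benjamini-Hochberg adjusted p = 0.00269). Within the 18 clones with both cut lists, 9 held it in monocytes alone and 0 in progenitors alone (exact sign test, p = 0.00391, Benjamini-Hochberg adjusted p = 0.0360, against 5.04% of regions called higher in monocytes). Within clones 1 to 13 the difference was 61.5 points (Fisher's exact test, adjusted p = 0.0374), and within the clones whose lists carry the naming code CRb1 it was 58.7 points (adjusted p = 0.00673). No locus region was called higher in progenitors by that paired test, against 5.85% of regions. In lists of 20000 peaks, 22 of 23 progenitor lists and 11 of 12 monocyte lists held it, and the difference was -3.99 points (Fisher's exact test, adjusted p = 1). Ranked by the second score, the difference was 15.3 points and did not pass (adjusted p = 0.404). In lists of 5000 peaks no list of either stage held it.

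The pair of regions that every progenitor list holds allows a comparison inside a list, the first score of region 28 divided by that of region 6, wherever both are peaks. In progenitors the ratio was 0.215 at the lowest, 0.463 at the median and 1.36 at the highest (n = 24). In monocytes it was 0.407, 0.822 and 1.44 (n = 13). The ranges overlap, and the monocyte ratio was the higher in 11 of the 13 clones that gave both. Not every list gives a ratio, since both peaks are needed. The monocyte lists of clones 3 and 10, with 13606 and 16152 peaks the shortest of clones 1 to 13, held region 6 without region 28 and gave none. The monocyte lists of clones 15 and 24, with 7378 and 4464 peaks, held region 28 without region 6 and also gave none. The longest monocyte list, that of clone 20 with 38786 peaks, held neither region. Those of clones 18 and 25, with 10966 and 15260 peaks, gave a ratio. The part of list length in this was not tested. The ratio was chosen after the values were seen and is given without a test.

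**Figure D5:**
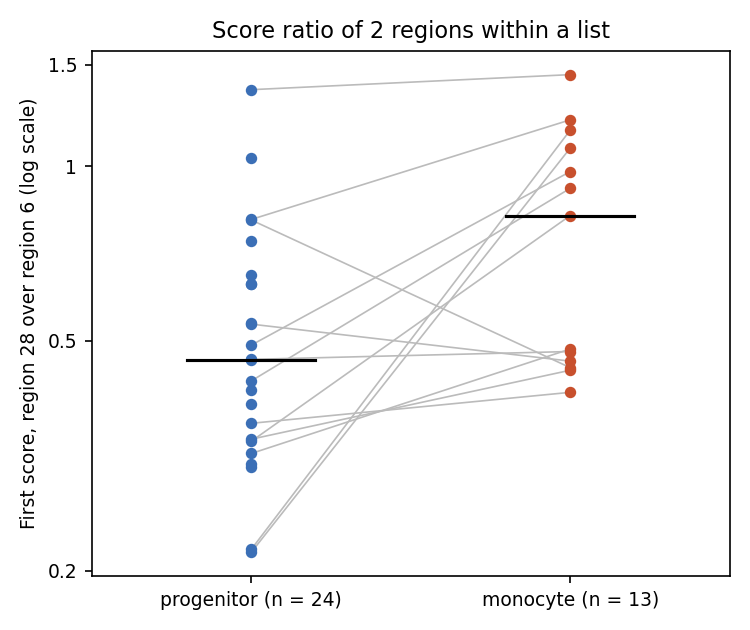
First score of region 28 divided by that of region 6 in the same list (vertical log axis), by stage. Points are lists, grey lines join the lists of 1 clone and black bars are medians, 0.463 in 24 progenitor lists and 0.822 in 13 monocyte lists.

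Region 12, at chr7:135206791-135207177, was named after its values were seen, because it was the only locus region held by at least 10 lists that more monocyte than progenitor lists held. Over the genome, 643 of 82920 regions held by at least 10 lists had that property. The monocyte lists of 13 clones held it (1, 2, 4, 5, 7, 8, 9, 11, 12, 13, 15, 18 and 25), although they are the shorter, against 9 progenitor lists (3, 9, 10, 15, 17, 18, 19, 20 and 24). Its monocyte rank was 2816.5 at best, in clone 15, with a median of 12112.5 and a worst of 22453.5, in clone 2. Its progenitor rank was 30388.5 at best, in clone 10, with a median of 51445 and a worst of 73789.5, in clone 3. The ranks of the stages do not overlap, but no monocyte list could give a rank past 38786, and the median monocyte list held 21099 peaks. How many regions over the genome show such separate ranks was not counted. As a share of the list they do overlap, with 36.8% to 90.1% in monocytes and 33.5% to 85.9% in progenitors. The tags under the peak overlapped, with 10 to 54 in monocytes (median 29) and 10 to 62 in progenitors (median 26). Region 28 differed there, with medians of 55 tags in monocytes and 142 in progenitors. Tags were not scaled for depth, and the peak at rank 10000 carried a median of 43.5 tags in monocyte lists and 239 in progenitor lists.

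Among the 20000 strongest peaks, 8 of 12 monocyte lists and 0 of 23 progenitor lists held region 12. Among the 10000 strongest, 4 of 18 monocyte lists and 0 of 24 progenitor lists held it. The region was named for being held by more monocyte lists, so these counts describe that choice and carry no test. For the other locus regions tested with 20000 peaks, regions 6 and 28, neither difference passed, while over the genome 14.4% of regions were called higher in monocytes and 12.9% in progenitors.

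Because 6 monocyte lists are too short for a cut at 10000, a further comparison, added after the data were seen, cut the lists of each clone to the length of its shorter one and asked in which stage a region stood higher. Region 28 stood higher in monocytes in 15 of the 24 clones and in progenitors in 3, the rest being ties (exact sign test, p = 0.00754, Benjamini-Hochberg adjusted p = 0.0295). Region 12 stood higher in monocytes in 13 clones and in progenitors in 1, which restates the presence it was named for. Over the 36856 regions tested this way, 14.5% were called higher in monocytes and 18.9% in progenitors. Region 6 stood higher in monocytes in 8 clones and in progenitors in 11 (adjusted p = 0.771). Within clones 1 to 13 alone, region 28 lost its call, with 11 clones against 2 (adjusted p = 0.0563; 19.9% of regions were called higher in monocytes there and 13% in progenitors).

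Region 11, at chr7:135206031-135206244, ends 546 bp before region 12 and showed the opposite distribution. It was held by 21 progenitor lists and by the monocyte lists of clones 4, 5 and 12. Of the progenitor lists, 12 held region 11 alone, 9 held both, 0 held region 12 alone and 3 held neither. Of the monocyte lists, 0 held region 11 alone, 3 held both, 10 held region 12 alone and 11 held neither. So wherever only 1 of the neighbours was a peak, it was region 11 in progenitors and region 12 in monocytes. The median progenitor rank of region 11, 43263, lies past the end of the longest monocyte list, with 38786 peaks. Region 12 was named for being held by more monocyte lists, so part of the contrast restates that choice. The part of list length in it was not tested. Where both were peaks, region 12 ranked above region 11 in 3 of 3 monocyte lists and in 3 of 9 progenitor lists. The position of the peak inside region 12 also varied. Its centre lay 70.5 to 307.5 bp from the region's left edge in monocytes (median 259.5) and 88.5 to 335.5 bp in progenitors (median 314.5), and 9 progenitor lists gave 10 peaks there.

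Progenitor presence of region 12 differed between the naming codes of the lists. It was held by 4 of 4 progenitor lists coded CRb3, which have 98085 to 136322 peaks, by 5 of 18 coded CRb1, which have 11114 to 122638, and by 0 of 2 coded CRb2. Within CRb1 the longest list, that of clone 16, lacked it, while that of clone 10, with 63118 peaks, held it. List lengths differ between the codes, and neither the part of the code nor that of list length in this was tested.

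The other regions held by both stages were weaker than region 6 and mostly progenitor peaks. Region 13, at chr7:135209195-135209365, was held by 21 progenitor lists at ranks 21255.5 to 41906.5 and by 8 monocyte lists at ranks 15141.5 to 24616.5. Region 10, at chr7:135202707-135202888, was held by 21 progenitor lists at ranks 31583 to 71562 and by 6 monocyte lists at ranks 18354 to 25359. Cut to the shorter list of each clone, region 10 stood higher in monocytes in 6 clones and in progenitors in 0. It entered that comparison through its 6 monocyte lists alone, since 0 cut progenitor lists held it, so these counts carry no test. Region 13 stood higher in monocytes in 7 clones and in progenitors in 2, which did not pass (exact sign test, adjusted p = 0.281). Region 2, at chr7:135185998-135186300, was held by 21 progenitor and 5 monocyte lists, and region 15, at chr7:135232765-135232935, by 21 and 3. Neither passed the same test (adjusted p = 1 for each). Region 21 was held by 21 progenitor lists and by the monocyte list of clone 7. All the monocyte lists with regions 2, 10, 11, 13 or 15 were of clones 1 to 13, whereas the progenitor lists that lacked regions 2, 10, 13 and 15 were in each case those of clones 11, 21 and 25.

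Most of the remaining regions were peaks in progenitor lists alone. The 22 regions without a monocyte peak included 8 that at least 15 progenitor lists held, among them regions 9, 14 and 33 with 21 lists each and region 25 with 20. They made up 212 progenitor peaks, of which 9, from 6 regions, ranked within the length of the same clone's monocyte list. The other peaks ranked past the end of that list, so that no fall was shown for them. No region of the locus was called higher in progenitors by any of the presence or position tests, but few could be tested. They were 2 for presence in lists of 10000, 3 in lists of 20000 and 7 for position in the 24 clones. None of the 22 regions was among them. Over the genome, 12.2%, 12.9% and 18.9% of the regions tested in these ways were called higher in progenitors.

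The 3 regions seen in monocytes alone, regions 20, 24 and 31, all came from the monocyte list of clone 20, and no other list held them. Their peaks carried 9, 10 and 10 tags, near the 7 of the lowest peak in that list. The list is the longest of its stage, with 38786 peaks, but had only 15 tags at rank 10000, and it lacked regions 6, 12 and 28. Its progenitor partner held 19 locus regions. No locus region was therefore found in several monocyte lists and in no progenitor list.

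Whether the clones whose progenitors hold a region are those whose monocytes hold it was tested on the cut lists, where region 6 alone had enough clones of each kind. Among the 10000 strongest peaks, 12 clones held it in both stages, 1 in progenitors alone, 3 in monocytes alone and 2 in neither (two-sided Fisher's exact test, p = 0.172, Benjamini-Hochberg adjusted p = 0.964). Of the 3035 regions tested that way over the genome, 0% were called and 5.7% had an unadjusted p under 0.05. In the lists as deposited 6 locus regions could be tested, and 0 were called (smallest p = 0.206, adjusted p = 1).

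The regions elsewhere whose ranks most resembled those of region 28 over the 42 cut lists lay at chr6:129182869-129183177, chr14:73841076-73841314 and chr15:80628849-80629084. Their Spearman correlations with region 28 were 0.895, 0.884 and 0.880, and absence from a cut list counted as the lowest rank. They were among the 10000 strongest peaks in 9, 11 and 12 monocyte lists and in 0, 0 and 1 progenitor lists. Region 28 was so in 10 of 18 monocyte lists and 1 of 24 progenitor lists. Most of the 42 lists were thus tied at the lowest rank, and the correlations rest largely on shared absence. These correlations share the stage difference and the depth of the lists, and are a description only.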

How the data were processed

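ATAC-seq peak lists of 48 libraries, 24 progenitor and 24 monocyte, were used, 1 file per library. Reads were processed with BWA against mm9, per the submitters' processing notes. The deposited files hold peak coordinates and 2 score columns without header, and the sources used here do not give the peak caller, the scaling or what a score stands for. The first score runs on evenly spaced steps, and in each list at least 89.8% of its values under 40 steps were whole to within 0.1 step. Each list carries its own depth, and no total read count is given.

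Groups were recorded from the sample titles, in which Plus marks progenitors and Minus marks monocytes. The clone number pairs the samples, as the series design states that progenitors and monocytes are paired by clone. Peaks were merged at 1 bp, ranked by the first score with mean ranks for ties, and lists with at least 10000 peaks (42) were cut to that length. The monocyte lists left out were those of clones 24, 23, 22, 19, 17 and 15. Regions held by at least 5 cut lists were tested by two-sided Fisher's exact test, rank percentiles by 100000 permutations, and clone-matched positions by exact sign tests, with Benjamini-Hochberg adjustment over all regions at 0.05. Alternatives were other list lengths, scores, region definitions, clone subsets, treatments of ties, the block by clone, and leaving out each library or clone. The matched position test, the ties, the rank tests within clones 1 to 13 other than the planned one, and the omission of 6 libraries were added after seeing the data. The tests were run on simulated data with known changes first. Values are given for the regions tested for presence or rank, for the 5 others held by most lists and, chosen after their values were seen, for regions 12 and 21 and those counted by stage. The interval, regions, motifs and lists were chosen with earlier results of these data known. Other integrin genes and markers of cell types were not analysed here, since the annotation at hand is of another build; the labelled stages were therefore not checked against markers. Python 3.11.15, numpy 2.4.6, pandas 2.3.3, scipy 1.17.1 and matplotlib 3.10.9 were used.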

Additional observations from a re-analysis of the deposited data

How the results depend on the processing

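The count of locus regions higher in monocytes was 1 of 2 tested in the main comparison. Over the genome, 11.7% of regions were called higher in monocytes there and 12.2% in progenitors. The locus count was 0 of 1 with lists of 5000 peaks and in clones 15 to 25, where only region 6 was tested. It was 0 of 2 with the second score, and 2 of 7 in the test blocked by clone on lists cut to the shorter of each clone. The number tested thus changed between settings, and the counts are not on 1 scale. The count was 1 in 11 other settings, the plain replicate block among them, and from 1 to 1 without each library in turn. That 1 was region 28 except with lists of 20000 peaks and in the shorter-list test within clones 1 to 13, where it was region 12; those 2 calls, and 1 of the 2 in the shorter-list test, concern a region named for that pattern. The count higher in progenitors was 0 in 15 other settings and without each library in turn (0 to 0), and both rank counts were 0 in 5 other settings and without each list of clones 1 to 13 in turn (0 to 0). Region 28 gave -3.99 points with lists of 20000 and 15.3 points with the second score, 50.0 to 66.7 points in 9 other settings, and 48.8 to 55.6 points without each library in turn (adjusted p 0.00055 to 0.00512). Region 6 turned to -16.1 points with lists of 5000, -8.33 with lists of 20000 and -23.6 in clones 15 to 25, none past the threshold (adjusted p 0.363 to 0.874). The cause of these shifts was not tested. As clones higher in monocytes minus clones higher in progenitors, the position of region 12 ranged from 11 to 13 without each clone in turn and that of region 28 from 11 to 13. Region 12 gave 22.2 points with at least 2 lists of 10000. Both results for region 12 restate the presence it was named for and carry no test. Region 28 fell to a difference of 9 clones within clones 1 to 13 (exact sign test, adjusted p = 0.0563). The same-clone count was 0 in its alternatives. No rank test over all 42 lists gave a value for the locus, with its block or other alternatives, because no locus region is a peak in all of them, and the same-clone test with lists of 5000 or 20000 had no locus region to test. Monocyte lists end at 38786 peaks or earlier, and the part of depth in the absence of weaker regions was not tested.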
